A study of Mus musculus with 12 samples.

Results

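The 10 genes examined were the histone deacetylases Hdac1, Hdac2, Hdac3, Hdac4, Hdac5, Hdac6, Hdac7, Hdac8 and Hdac11 and the tubulin deacetylase Sirt2, in the mouse oligodendroglial cell line Oli-neu. They were taken as every array feature whose annotated gene symbol is one of these names, which gave 15 features of 41230 measured and 10 genes of 19087. Hdac1, Hdac3, Hdac4, Hdac5, Hdac6 and Hdac11 had 1 feature each, Hdac2, Hdac7 and Hdac8 had 2, and Sirt2 had 3, and all 15 gave a value on all 12 arrays. Features of a gene are numbered by their order on the array. They read the same gene and are not replicates of each other, and which part of the transcript each one reads is not given in the sources used here.

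Oli-neu cells with a stable EGFP reporter, a green fluorescent protein, were kept for 16 h in conditioned neuronal medium, the medium taken from cultured neurons, or with Y27632, a protein kinase inhibitor. Each treatment was compared with untreated parallel cultures of the same line on 6 Agilent 2-colour arrays. The treated RNA was labelled with Cy3 on 3 of the 6 arrays of each experiment and with Cy5 on the other 3, and each array gave 1 ratio of treated over untreated per feature. The labels of the series call the first treatment neurons and the second Y27631 and describe both arms of the second experiment as holding neurons, and the study's own description of its cultures is used here. The design text calls 6 of the arrays technical replicates, so p-values cover only array-to-array spread, and this may be technical.

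Lysine deacetylases remove acetyl groups from histone tails and from other proteins. Class I enzymes (Hdac1, Hdac2, Hdac3, Hdac8) are mostly nuclear, and Hdac1, Hdac2 and Hdac3 act as the catalytic subunits of corepressor complexes. Class IIa enzymes (Hdac4, Hdac5, Hdac7) move between nucleus and cytoplasm and bind Mef2 transcription factors. Hdac6, of class IIb, and Sirt2, an NAD-dependent sirtuin, deacetylate alpha-tubulin in the cytoplasm, and Hdac11 is the only class IV enzyme. In the oligodendrocyte lineage, deacetylase activity is known to be needed for precursors to differentiate, and Sirt2 is an abundant protein of myelin-forming cells.

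Values are standardized log ratios, scaled to a standard deviation of 1 on each array and here called SD units, with a positive value meaning more RNA in treated than in untreated cells. The direction was set by Olig1 and Olig2, which the study lists as induced by conditioned neuronal medium and which here stood at 5.44 and 3.93 SD units. The arrays give no level of any gene and no signal over background, so neither fewer cells of a type nor less RNA per cell can be told from the other, and the cell type could be examined only through changes of marker RNA. Of 11 myelin and oligodendrocyte markers measured, 8 were higher and 1 was lower with conditioned neuronal medium, and 7 were higher and 1 was lower with Y27632. Olig1 and Olig2 are among these markers, so their direction in the medium was fixed by the choice of sign. The markers also include other genes that the study lists as induced by the medium. Of 10 neuron markers, 6 were higher and 2 were lower with conditioned neuronal medium, against 1 higher and 6 lower with Y27632. Of 8 astrocyte markers, 2 were higher and 4 lower with conditioned neuronal medium and 5 were higher with Y27632, and of 7 microglia markers 3 were higher with the medium, while 1 was higher and 2 were lower with Y27632. Of all genes, 27.6% were higher and 36.7% lower with conditioned neuronal medium, and 20.5% were higher and 19.5% lower with Y27632. The part of these cell type markers in the values below was not tested. Arrays of one dye orientation correlated across features at 0.859 to 0.89 with conditioned neuronal medium and at 0.731 to 0.809 with Y27632. Arrays of opposite orientation correlated at only 0.249 to 0.296 and at -0.262 to -0.12, so values under each labelling are given for the features of the 10 genes.

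With conditioned neuronal medium, 12 of the 15 features passed the test (adjusted p under 0.05), 5 higher and 7 lower, where 60.5% of all features passed it, 27.8% higher and 32.7% lower. With Y27632, 7 of the 15 passed, 3 higher and 4 lower, against 36.9% of all features, 19.2% higher and 17.6% lower. No deacetylase feature reached 1 SD unit with conditioned neuronal medium, where 12.4% of all features passed the test at that size, and with Y27632 only Hdac4 did, against 8.07% of all. The median value over the 15 features was -0.21 SD units with conditioned neuronal medium and -0.13 with Y27632, and that of all features was -0.06 and -0.01. The median size without sign was 0.45 and 0.40 SD units, against 0.36 and 0.28 over all features. By the mean of 6 arrays, Hdac3 and the mean of the Sirt2 features were lower and Hdac4 was higher with each treatment. On the Cy3 arrays alone Hdac4 averaged 0.10 SD units in the medium and -0.03 with Y27632. On the Cy5 arrays alone Sirt2 feature 3 averaged 0.12 and 0.27. Hdac1, Hdac2, Hdac6 and Hdac11 differed between the treatments.

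**Figure D1:**
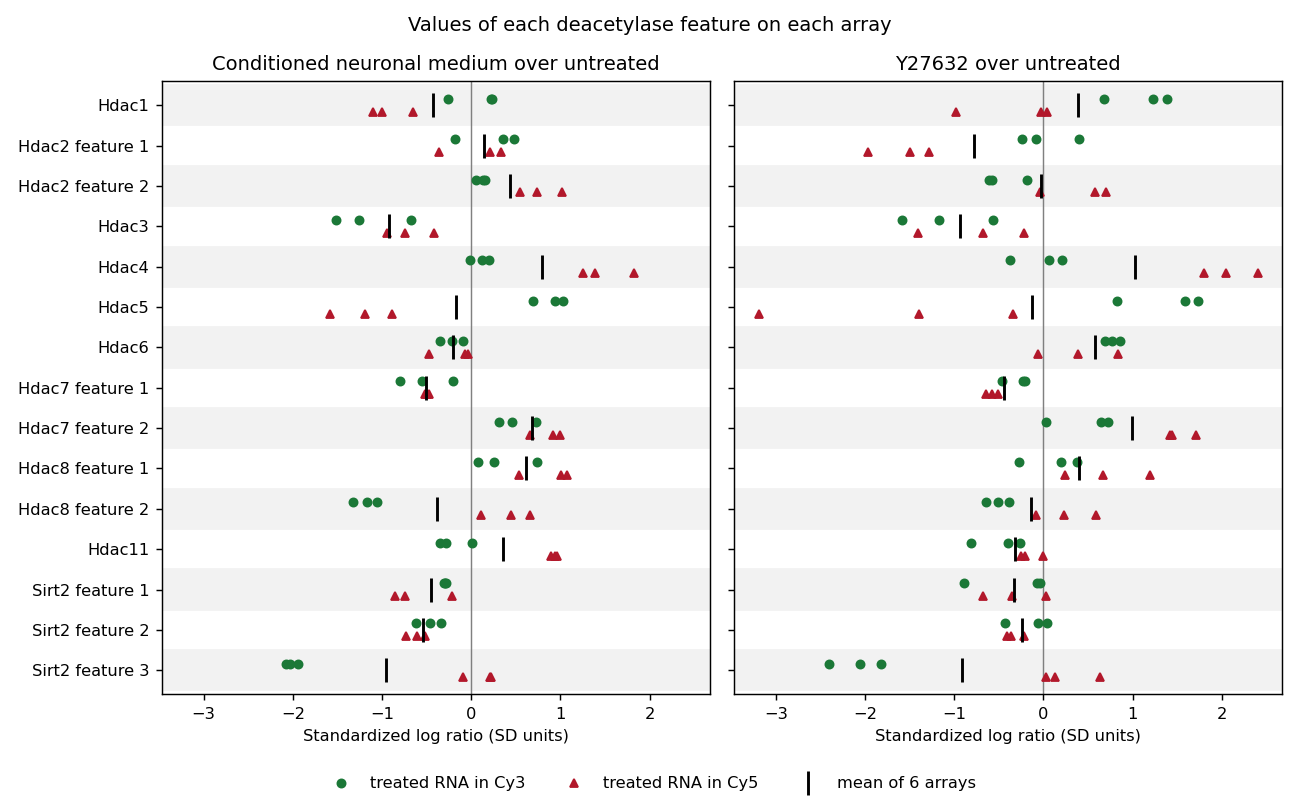
Standardized log ratio (SD units, horizontal axis) of each deacetylase feature on each array, with conditioned neuronal medium over untreated on the left and Y27632 over untreated on the right. Circles are arrays with the treated RNA in Cy3, triangles are arrays with it in Cy5, and black bars are means of 6 arrays. Hdac3 was below 0 on all 12 arrays, while Hdac4, Hdac5 and Sirt2 feature 3 split by dye in both experiments.

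The promoters of Hdac4, Sirt2, Hdac6 and Hdac11 are shown for the reading of these results. The 6-array means of Hdac4 and Sirt2 had one sign with both treatments, and Hdac6 and Hdac11 differed between the treatments. Each promoter is given as the 250 bases before the RefSeq start on GRCm38.p6, 5′ to 3′ on the gene's strand. Capitals mark the GC box (GGGCGG) and the CCAAT box (CCAAT), each searched on both strands.
Hdac4, chr1:92180342-92180591, minus strand: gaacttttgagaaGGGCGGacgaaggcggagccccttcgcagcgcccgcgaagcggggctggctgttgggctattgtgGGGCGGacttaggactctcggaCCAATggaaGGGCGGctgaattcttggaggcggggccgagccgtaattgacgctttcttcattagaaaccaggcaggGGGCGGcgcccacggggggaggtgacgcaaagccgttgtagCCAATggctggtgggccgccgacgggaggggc
Sirt2, chr7:28766502-28766751, plus strand: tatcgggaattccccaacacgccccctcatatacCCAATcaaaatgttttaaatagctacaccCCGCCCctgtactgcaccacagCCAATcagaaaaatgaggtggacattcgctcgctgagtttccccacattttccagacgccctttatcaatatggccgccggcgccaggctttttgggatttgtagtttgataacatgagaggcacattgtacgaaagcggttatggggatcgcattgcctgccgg
Hdac6, chrX:7947890-7948139, minus strand: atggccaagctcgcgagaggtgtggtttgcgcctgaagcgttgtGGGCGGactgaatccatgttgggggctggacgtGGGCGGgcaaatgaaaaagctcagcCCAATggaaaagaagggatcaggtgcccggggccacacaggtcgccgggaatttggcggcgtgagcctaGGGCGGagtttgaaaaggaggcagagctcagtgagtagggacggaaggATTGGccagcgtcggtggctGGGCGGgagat
Hdac11, chr6:91156565-91156814, plus strand: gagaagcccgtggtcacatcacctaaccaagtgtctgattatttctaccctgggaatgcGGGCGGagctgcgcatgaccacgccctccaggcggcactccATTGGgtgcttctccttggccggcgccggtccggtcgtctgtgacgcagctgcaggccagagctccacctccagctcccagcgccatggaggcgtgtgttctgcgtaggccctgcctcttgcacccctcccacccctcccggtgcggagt
The window of Hdac4 held 4 GC boxes and 2 CCAAT boxes, and that of Hdac6 also held 4 and 2. The Sirt2 window held 1 GC box and 2 CCAAT boxes, and the Hdac11 window 1 of each. The marked matches do not overlap each other. Among 32851 mouse windows of the same length, 32.7% held a GC box and 33.8% a CCAAT box. The GC content was 65.2% for Hdac4 and for Hdac11, 61.2% for Hdac6 and 50% for Sirt2, where the median of all windows was 52.4%. Of the 11 windows given for 8 of the 10 genes, 4 of them for Hdac7, 7 held a GC box and 6 a CCAAT box. A match is a run of letters and not a site known to be bound.

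Hdac3, the catalytic subunit of the NCoR corepressor complex, was lower with both treatments. In conditioned neuronal medium its feature stood at -1.26, -1.52 and -0.68 SD units with the treated RNA in Cy3 and at -0.95, -0.42 and -0.74 in Cy5. With Y27632 it stood at -1.17, -0.57 and -1.59 in Cy3 and at -0.68, -1.41 and -0.22 in Cy5. All 12 values were below 0, and the arrays of the treatments overlapped over most of their range. The means were -0.93 ± 0.41 SD units in conditioned neuronal medium and -0.94 ± 0.53 with Y27632 (SD, n = 6 arrays each, limma adjusted p = 0.00013 and 0.0040). The difference between the treatments was 0.01 SD units with a 95% interval of -0.50 to 0.52 (adjusted p = 0.98). Hdac3 was 1 of 8 features with one sign on all 6 arrays of conditioned neuronal medium, where 31.2% of all features had one, and 1 of 4 with Y27632, where 19.1% had. The smallest exact two-sided sign-flip p that 6 arrays allow is 0.03125. Hdac3 reached it in each experiment, as does any feature with one sign on all 6 arrays, so it adds nothing to that count.

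Hdac1 and Hdac2, close relatives that form the catalytic pair of the Sin3, NuRD and CoREST complexes, differed between the treatments in opposite directions. Hdac1 averaged -0.43 ± 0.58 SD units in conditioned neuronal medium (adjusted p = 0.0050) and 0.39 ± 0.89 with Y27632 (adjusted p = 0.099). Their difference, medium minus inhibitor, was -0.82 SD units (95% interval -1.26 to -0.38, adjusted p = 0.0051). With the medium, Hdac1 stood at 0.23, 0.22 and -0.27 SD units in Cy3 and at -1.10, -1.0 and -0.65 in Cy5, and with Y27632 at 1.23, 0.68 and 1.39 in Cy3 and at 0.04, -0.03 and -0.98 in Cy5. Within each labelling the medium arrays lay lower than the Y27632 arrays, apart from the lowest Y27632 array in Cy5, which fell among those of the medium. The difference was -1.04 SD units on the Cy3 arrays alone (adjusted p = 0.0096) and -0.595 on the Cy5 arrays alone (adjusted p = 0.15).

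Both features of Hdac2 were relatively higher in conditioned neuronal medium than with Y27632, feature 1 by 0.92 SD units (95% interval 0.51 to 1.33, adjusted p = 0.0015) and feature 2 by 0.46 (0.12 to 0.80, adjusted p = 0.029). They did not show the same change against untreated cells. The difference of feature 1 was 1.64 SD units on the Cy5 arrays alone (adjusted p = 0.0019) and 0.19 on the Cy3 arrays alone (adjusted p = 0.57), and that of feature 2 was 0.35 in Cy5 (adjusted p = 0.31) and 0.57 in Cy3 (adjusted p = 0.040). Feature 1 averaged 0.14 ± 0.34 in conditioned neuronal medium (adjusted p = 0.34) and -0.78 ± 0.93 with Y27632 (adjusted p = 0.0022). Feature 2 averaged 0.44 ± 0.39 (adjusted p = 0.0018), above 0 on 6 of 6 arrays of the medium, and -0.02 ± 0.56 with Y27632 (adjusted p = 0.92). In the medium feature 1 stood at -0.18, 0.48 and 0.36 SD units in Cy3 and at 0.215, 0.34 and -0.37 in Cy5, and feature 2 at 0.13, 0.15 and 0.055 in Cy3 and at 0.735, 0.55 and 1.02 in Cy5. With Y27632 feature 1 stood at 0.40, -0.24 and -0.08 SD units in Cy3 and at -1.50, -1.96 and -1.28 in Cy5, while feature 2 stood at -0.58, -0.61 and -0.18 in Cy3 and at 0.58, -0.04 and 0.70 in Cy5. The dye gaps of the 2 features thus ran in opposite directions with the inhibitor. The difference of feature 2 lost its call without conditioned neuronal medium replicate 1, 2 or 6 or without Y27632 replicate 2, 4 or 5, its value then lying between 0.35 and 0.46 SD units (adjusted p = 0.055 to 0.073). The mean of both features with Y27632 was -0.40 ± 0.33 SD units (adjusted p = 0.024), a call lost without replicate 2, 5 or 6 of that experiment (-0.29, -0.35 and -0.42 SD units). That call was also lost with no moderation, with no dye term and on the Cy3 arrays alone. Like every gene call with Y27632, it was lost with labellings averaged.

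Hdac8, the class I enzyme that deacetylates the cohesin ring, gave no single direction. In conditioned neuronal medium feature 1 was higher at 0.62 ± 0.40 SD units (6 of 6 arrays, adjusted p = 0.0011) and feature 2 was lower at -0.39 ± 0.89 (adjusted p = 0.0058). Feature 1 lay between 0.08 and 1.08 SD units, whereas feature 2 stood at -1.33, -1.17 and -1.05 in Cy3 and at 0.11, 0.45 and 0.66 in Cy5. With Y27632 the features averaged 0.40 ± 0.49 (adjusted p = 0.065) and -0.13 ± 0.48 (adjusted p = 0.42), and neither passed the test. In Cy3 feature 1 then stood at 0.20, 0.375 and -0.275 SD units and feature 2 at -0.39, -0.51 and -0.64, and in Cy5 feature 1 stood at 0.67, 0.24 and 1.19 and feature 2 at 0.235, -0.085 and 0.59. The mean over both features was 0.11 SD units in the medium and 0.13 with the inhibitor (adjusted p = 0.31 and 0.41).

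Hdac4, a class IIa enzyme that represses Mef2 target genes, had the highest value of the 15 features with each treatment. It averaged 0.80 ± 0.79 SD units in conditioned neuronal medium (adjusted p = 7.5e-05) and 1.03 ± 1.19 with Y27632 (adjusted p = 0.00038). With the treated RNA in Cy5 it stood at 1.39, 1.26 and 1.83 SD units in the medium and at 2.05, 2.40 and 1.80 with Y27632. With the treated RNA in Cy3 it stood at 0.20, -0.01 and 0.12 in the medium and at -0.38, 0.21 and 0.07 with Y27632. The values of the labellings did not overlap in either experiment, and the Cy3 arrays alone averaged 0.10 SD units in the medium and -0.03 with the inhibitor. The treatments did not differ by test (-0.23 SD units, 95% interval -0.57 to 0.12, adjusted p = 0.27).

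Hdac5, a close relative of Hdac4, passed the test with neither treatment. In conditioned neuronal medium it stood at 0.69, 0.94 and 1.02 SD units in Cy3 and at -1.19, -1.58 and -0.89 in Cy5. With Y27632 it stood at 0.83, 1.73 and 1.59 in Cy3 and at -0.34, -1.40 and -3.19 in Cy5. The sign followed the dye on every array, and the means were -0.17 ± 1.18 and -0.13 ± 1.92 SD units (adjusted p = 0.19 and 0.79).

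Hdac7, a class IIa enzyme known from T cells and blood vessels, had features of opposite sign that kept that sign with both treatments. Feature 1 was lower, at -0.51 ± 0.19 SD units in conditioned neuronal medium and -0.44 ± 0.18 with Y27632 (adjusted p = 0.0012 and 0.0084), and was below 0 on all 12 arrays. Feature 2 was higher, at 0.68 ± 0.26 and 0.995 ± 0.64 (adjusted p = 0.00015 and 0.00041), and was above 0 on all 12. Feature 1 ranged over -0.80 to -0.20 SD units in the medium and -0.65 to -0.21 with the inhibitor, and feature 2 over 0.31 to 1.00 and 0.03 to 1.71, so the features did not overlap in either experiment. Each feature kept its sign under each labelling, feature 1 averaging -0.52 in Cy3 and -0.50 in Cy5 in the medium and -0.30 and -0.58 with Y27632, and feature 2 averaging 0.50 and 0.86 in the medium and 0.465 and 1.525 with Y27632. The mean of both features, 0.09 SD units in the medium (adjusted p = 0.30) and 0.28 with Y27632 (adjusted p = 0.033), lay between features of opposite sign, and the Y27632 call was lost without any one of replicates 1, 2, 3, 4 and 6 (0.25 to 0.30 SD units). That call was also lost under quantile normalization, with no dye term and on the Cy3 arrays alone. Like every gene call with Y27632, it was lost with labellings averaged. RefSeq gives 4 start windows for this gene, and which transcripts the features read is not given in the sources used here.

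Hdac6, which deacetylates tubulin and cortactin, differed between the treatments by -0.79 SD units (95% interval -1.13 to -0.44, adjusted p = 0.0012). With Y27632 it was higher at 0.58 ± 0.36 (adjusted p = 0.0082), with 0.77, 0.87 and 0.69 SD units in Cy3 and 0.39, 0.84 and -0.06 in Cy5, the Cy5 arrays alone averaging 0.39. It lost that call with no dye term and on the Cy5 arrays alone (adjusted p = 0.075 and 0.19). In conditioned neuronal medium it averaged -0.21 ± 0.17, with -0.22, -0.09 and -0.35 in Cy3 and -0.04, -0.07 and -0.47 in Cy5. All 6 medium values were below 0 and 5 of 6 inhibitor values were above the highest of them, the Cy5 array at -0.06 being the exception. The small value in the medium did not pass the test over features (adjusted p = 0.075) and lay just inside it over genes (adjusted p = 0.0498), a call lost under median centring, quantile normalization, no moderation, the median over features, no dye term, each labelling alone, and without replicate 1, 2, 3, 5 or 6. The difference between the treatments was -0.99 SD units on the Cy3 arrays alone (adjusted p = 0.0021) and -0.58 on the Cy5 arrays alone (adjusted p = 0.12). The dye gap of Hdac6 was among the smaller ones, 0.02 SD units in the medium and -0.39 with the inhibitor (adjusted p of the dye term 0.92 and 0.25).

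Hdac11, the class IV enzyme, which also removes fatty acyl groups from proteins, was higher with conditioned neuronal medium than with Y27632 by 0.68 SD units (95% interval 0.39 to 0.97, adjusted p = 0.00097). In the medium it averaged 0.36 ± 0.64 (adjusted p = 0.0043), with -0.28, 0.01 and -0.35 SD units in Cy3 and 0.96, 0.89 and 0.93 in Cy5. It lost that call with no dye term and on the Cy3 arrays alone (adjusted p = 0.30 and 0.21). With Y27632 it averaged -0.32 ± 0.27, with -0.26, -0.81 and -0.40 in Cy3 and 0.00, -0.21 and -0.25 in Cy5. The treatments did not overlap in Cy5, while in Cy3 they did. The value with Y27632 did not pass the test over features (adjusted p = 0.054) and passed it over genes (adjusted p = 0.034). That gene call was lost without replicate 2, 3, 5 or 6, with no moderation, with no dye term and on the Cy5 arrays alone. Like every gene call with Y27632, it was lost with labellings averaged. The difference between the treatments was 1.08 SD units on the Cy5 arrays alone (adjusted p = 0.0026) and 0.28 on the Cy3 arrays alone (adjusted p = 0.32).

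Sirt2, the sirtuin of myelin-forming cells, was lower in conditioned neuronal medium by each of its 3 features. Feature 1 averaged -0.45 ± 0.27 SD units and feature 2 averaged -0.55 ± 0.14, each below 0 on 6 of 6 arrays (adjusted p = 0.0033 and 0.00031). Feature 1 ranged over -0.85 to -0.22 SD units and feature 2 over -0.73 to -0.34, and the gaps between labellings, Cy5 minus Cy3, were -0.31 and -0.15. Feature 3 averaged -0.95 ± 1.18 (adjusted p = 9.2e-06) and stood at -2.08, -2.03 and -1.95 in Cy3 but at 0.23, 0.21 and -0.09 in Cy5. The gene mean was -0.65 ± 0.33 SD units (adjusted p = 6.1e-05).

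With Y27632, Sirt2 feature 3 again was lower by the test, at -0.92 ± 1.32 SD units (adjusted p = 0.00073), and again split by dye, with -2.41, -1.82 and -2.06 in Cy3 and 0.64, 0.03 and 0.13 in Cy5. Features 1 and 2 averaged -0.33 ± 0.38 and -0.24 ± 0.20, each below 0 on 5 of 6 arrays, and neither passed the test (adjusted p = 0.12 each), with means of -0.33 and -0.15 in Cy3 and -0.33 in Cy5 for each. The gene mean was -0.49 ± 0.40 SD units (adjusted p = 0.0016), with feature 3 the largest of its parts. The gene was not called with the median over features in place of the mean, with no dye term or on the Cy5 arrays alone. Like every gene with Y27632, it was not called with labellings averaged. No Sirt2 feature differed between the treatments by test, feature 2 coming closest at -0.31 SD units (95% interval -0.58 to -0.03, adjusted p = 0.063).

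**Figure D2:**
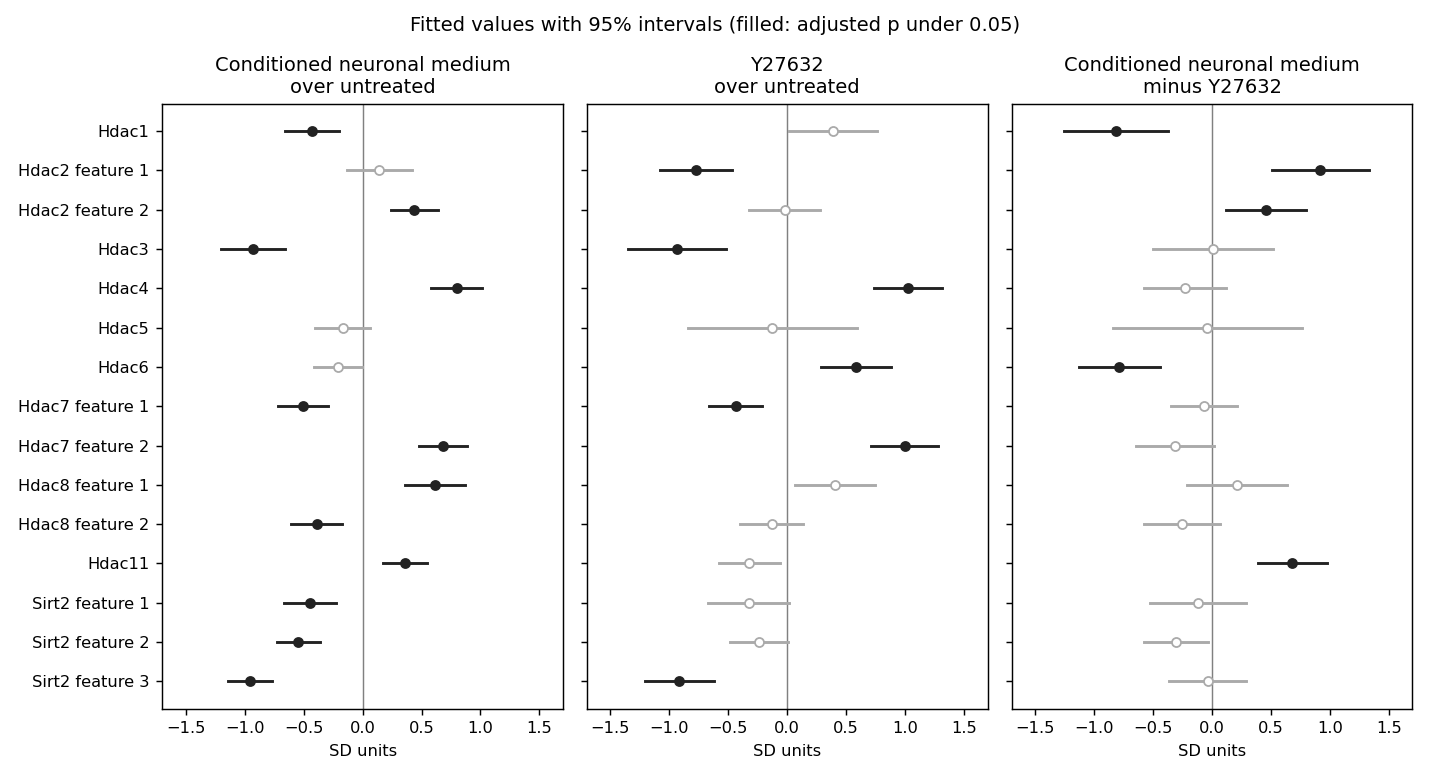
Fitted value of each feature in SD units (horizontal axis) with its 95% interval from limma, for conditioned neuronal medium over untreated, Y27632 over untreated, and conditioned neuronal medium minus Y27632. Filled symbols passed at adjusted p under 0.05. In the right panel Hdac1 and Hdac6 lay below 0 and Hdac11 and both Hdac2 features above it.

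In the comparison of the treatments with each other, 5 of the 15 features passed the test, 3 higher in conditioned neuronal medium and 2 lower, against 46.3% of all features, 22.1% higher and 24.2% lower. The median size over all 15 features, passing or not, was 0.26 SD units, against 0.42 over all features of the arrays. No test of these shares or sizes was made. The size of an SD unit is not known to be equal in the experiments.

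The labelling moved many of these values. The dye term passed the test for 7 of the 15 features in conditioned neuronal medium and for 8 with Y27632, where 57.6% and 52.1% of all features had such a term. Of these, 6 features had one in both experiments. Hdac1 and Hdac5 were lower with the treated RNA in Cy5 than in Cy3 both times, Hdac5 by -2.11 and -3.02 SD units. Hdac2 feature 2, Hdac4, Hdac8 feature 2 and Sirt2 feature 3 were higher in Cy5 both times, Sirt2 feature 3 by 2.14 and 2.36. Of the features called with conditioned neuronal medium, 8 had one sign in both labellings and 4 did not, namely Hdac1, Hdac8 feature 2, Hdac11 and Sirt2 feature 3. With Y27632, 4 had one sign, namely Hdac3, Hdac6 and both Hdac7 features, and 3 did not, namely Hdac2 feature 1, Hdac4 and Sirt2 feature 3. The share of all called features with one sign in both labellings was not counted, so whether these counts are usual is not known.

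By gene, 3 of the 10 were higher with conditioned neuronal medium (Hdac2, Hdac4, Hdac11), where 27.6% of all genes were, and 4 were lower (Hdac1, Hdac3, Hdac6, Sirt2), against 36.7% of all. With Y27632, 3 were higher (Hdac4, Hdac6, Hdac7) and 4 were lower (Hdac2, Hdac3, Hdac11, Sirt2), against 20.5% and 19.5% of all genes. Without Y27632 replicate 2 or 6 these 7 calls fell to 4, Hdac2, Hdac7 and Hdac11 being lost, while 35.5% and 33% of all genes were then called. Among the 8 other deacetylase genes measured, 1 was higher and 3 were lower in the medium, and 3 were higher and 3 lower with the inhibitor. Sirt6, a nuclear sirtuin, was lower in the medium at -1.28 ± 0.32 SD units (adjusted p = 2.6e-06). Hdac10, the other class IIb enzyme, was higher there at 0.34 ± 0.28 (adjusted p = 0.0026). Sirt7, a nucleolar sirtuin, was lower in the medium at -0.41 ± 0.31 and higher with Y27632 at 0.44 ± 0.37 (adjusted p = 0.00091 and 0.0084). With Y27632, Sirt1 was higher at 0.65 ± 0.29 and the mitochondrial Sirt3 and the class IIa Hdac9 were lower at -0.76 ± 0.37 and -0.61 ± 0.74 (adjusted p = 0.0036, 0.0033 and 0.00070), Hdac9 averaging -1.28 in Cy3 and 0.06 in Cy5.

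Genes of the complexes that carry Hdac1 and Hdac2 moved in both directions. For each list here and below, the shares over all genes were 27.6% higher and 36.7% lower in conditioned neuronal medium. With Y27632 they were 20.5% higher and 19.5% lower, and no list was tested against these shares. Of 13 Sin3 complex genes, 5 were higher and 5 lower in conditioned neuronal medium, and 7 were higher and 3 lower with Y27632. Brms1, a subunit of that complex, was lower at -1.69 ± 0.40 SD units in the medium and -0.81 ± 0.63 with the inhibitor (adjusted p = 2e-06 and 0.00047), and its relative Brms1l was higher in the medium at 1.5 ± 0.42 (adjusted p = 8.6e-06). Of 12 NuRD complex genes, 5 were higher and 3 lower in the medium, against 8 higher and 1 lower with the inhibitor. Mbd3, its methyl-CpG-binding-domain subunit, was lower both times, at -1.07 ± 0.21 and -1.0 ± 0.94 (adjusted p = 9.7e-06 and 6.4e-05), while the ATPase Chd3 was higher both times, at 0.60 ± 0.43 and 0.90 ± 0.49 (adjusted p = 0.00029 and 0.00017). Of 8 CoREST complex genes, 2 were higher and 1 lower in the medium, and 4 were higher with Y27632, among them the demethylase Kdm1a at 0.82 ± 0.64 and the repressor Rest at 0.61 ± 0.39 (adjusted p = 0.00081 and 0.0012).

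Of 4 measured genes of the NCoR complex, in which Hdac3 acts, 1 was higher and 2 were lower in conditioned neuronal medium, and 2 were higher and 1 was lower with Y27632. Gps2 was lower both times, at -0.27 ± 0.61 and -0.54 ± 0.34 SD units (adjusted p = 0.0072 and 0.0055), averaging -0.82 in Cy3 and 0.29 in Cy5 in the medium. Of 14 histone acetyltransferase genes, the enzymes that oppose the deacetylases, 6 were higher and 6 lower in the medium, and 3 were higher and 1 lower with the inhibitor. Hat1, which acetylates newly made histones, was lower both times, at -0.88 ± 0.17 and -1.08 ± 0.10 (adjusted p = 1.6e-05 and 4.4e-05). The acetyltransferase Kat7 was higher both times, at 0.68 ± 0.44 and 0.32 ± 0.22 (adjusted p = 4e-05 and 0.016), and the coactivator Ncoa3 was higher with Y27632 at 1.49 ± 0.32 (adjusted p = 6.6e-05).

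Of 22 measured genes for partners and kinases of the class IIa enzymes, 3 were higher and 9 lower in conditioned neuronal medium, and 4 were higher and 6 lower with Y27632. Camk1, a calmodulin-dependent kinase, and Mef2c, a transcription factor that class IIa enzymes bind, were lower in the medium at -2.85 ± 0.97 and -1.38 ± 0.27 SD units (adjusted p = 1.7e-08 and 7.7e-07), and the protein kinase D gene Prkd3 was higher at 1.13 ± 0.44 (adjusted p = 2.4e-06). With Y27632, Mef2a was higher at 0.49 ± 0.79 and Prkd2 was lower at -0.67 ± 0.38 (adjusted p = 0.0037 and 0.0065), Mef2a averaging -0.21 in Cy3 and 1.19 in Cy5.

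Of 8 genes of tubulin acetylation, the process that Hdac6 and Sirt2 reverse, 3 were higher and 5 lower in conditioned neuronal medium, and 2 were higher and 4 lower with Y27632. Over all genes 27.6% were higher and 36.7% lower in the medium, and 20.5% and 19.5% with the inhibitor. Tppp, a microtubule-binding protein of oligodendrocytes, was higher at 2.48 ± 0.23 SD units in the medium and 0.78 ± 0.35 with the inhibitor (adjusted p = 2.1e-08 and 0.0018). Atat1, the alpha-tubulin acetyltransferase, was higher both times at 0.57 ± 0.39 and 0.85 ± 0.56 (adjusted p = 0.00014 and 0.00011). Cttn, the Hdac6 substrate cortactin, was lower both times at -1.27 ± 0.13 and -1.07 ± 0.55 (adjusted p = 6.8e-07 and 0.00039). The alpha-tubulin gene Tuba1a averaged -1.49 ± 3.85 with Y27632 (adjusted p = 0.00022), its labellings averaging 2 in Cy3 and -4.98 in Cy5. Of the related genes named here, Hdac9, Mef2a and Tuba1a with Y27632 and Gps2 in the medium changed sign between the labellings, and the others kept one sign. Further genes chosen by the same rule, whose values are not described here, also changed sign. They were Tbl1x with both treatments, Zmym2, Kat5, Sik3 and Tuba8 in the medium, and Cdk2ap1 with Y27632. The rest of the genes chosen by that rule kept one sign.

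**Figure D3:**
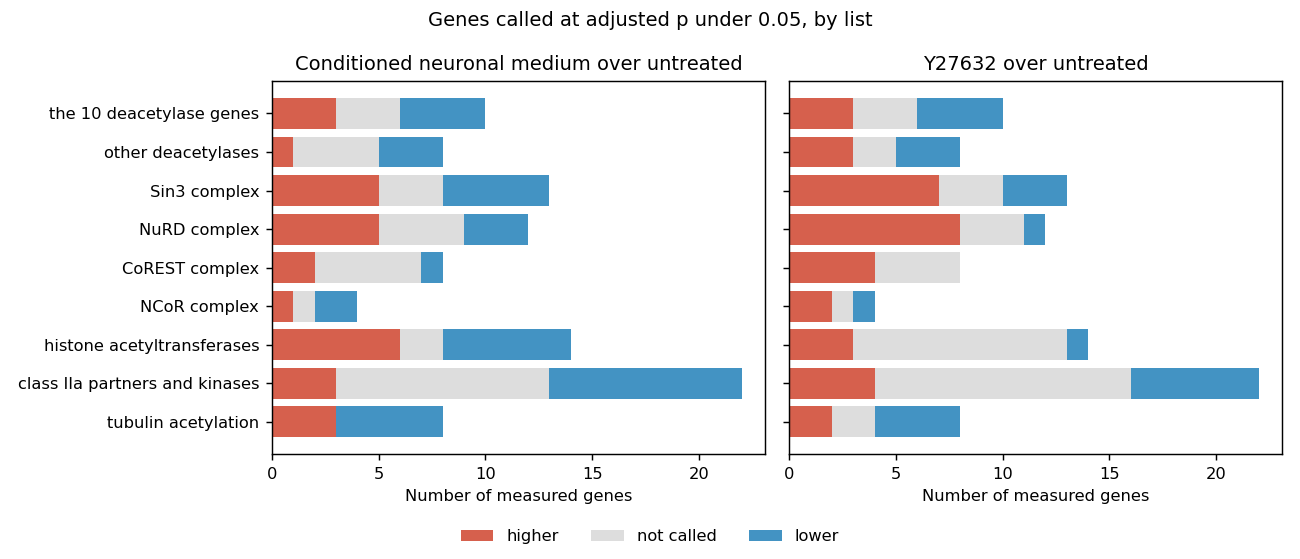
Number of measured genes (horizontal axis) called higher, not called or called lower at adjusted p under 0.05, for the 10 deacetylase genes and 8 lists of related genes, with conditioned neuronal medium on the left and Y27632 on the right. Of the 8 tubulin acetylation genes all were called in the medium, 3 higher and 5 lower, and of the 12 NuRD genes 8 were higher with Y27632. Over all genes 27.6% were higher and 36.7% lower in the medium, and 20.5% and 19.5% with Y27632.

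The features whose values over the 12 arrays were most like those of a gene were found for Sirt2, Hdac11 and Hdac1, as a description. For the mean of the Sirt2 features they belonged to Atat1, Jak1 and Srpr, with Pearson's r of 0.992, 0.987 and 0.987. The likeness is of the profile over arrays and not of the direction, since that Atat1 feature stood at 1.26 SD units in conditioned neuronal medium and 1.6 with Y27632. For Hdac11 they belonged to Sucla2, Pcsk5 and Dkk1 (r of 0.973, 0.968 and 0.964), and for Hdac1 to Slc41a3, Pfn2 and Arl3 (r of 0.971, 0.97 and 0.968). The arrays share the line, the platform and the dye orientation, along which the values of these genes varied.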

How the data were processed

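Each of the 12 arrays compared treated with untreated Oli-neu cells, 6 per treatment. The authors amplified total RNA by PCR, hybridised Cy3 and Cy5 cDNA to Agilent arrays, replaced saturated features by values of a lower-gain scan and normalized by loess. The deposited values are scores, standardized log ratios with a standard deviation of 1 on each array. Base and scaling are not given in the sources used here, so a value is no fold change. Dye-swapped arrays were already turned one way, and all signs were reversed here. Without intensities, depth and signal over background are unknown.

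Of 44290 listed features, 3060 had no value. Probe annotation gave the genes, 31906 of 32089 annotated probes matching a current gene, and features were averaged per gene. limma 3.58.1 (R 4.3.3) fitted an intercept and a dye term per experiment, and both experiments together for the difference, with Benjamini-Hochberg adjustment over 41230 features or 19087 genes. Every adjusted p is from these fits, errors after ± are SDs over 6 arrays, intervals are 95%, and exact sign-flip permutation tests were two-sided. The fits were tested on simulated data. Promoters and motif counts used RefSeq windows (Python 3.11.15).

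All 10 genes are named by feature, then up to 2 genes higher and 2 lower per list and treatment by adjusted p (some of these are given), and 3 similar features for 3 genes. Members and lists were chosen with earlier results of these data known. Replicate numbers did not pair the arrays of the experiments. Alternatives covered centring, scaling, the dye term, each labelling alone, averaging labellings, moderation, gene summary, single-gene features and each replicate left out. A few listed genes are not reported here.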

Additional observations from a re-analysis of the deposited data

Results flagged for a closer look

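A difference between the treatments that passed limma's test was found for 5 of the 15 features, from 4 genes, where 46.3% of all features passed it. With the labellings fitted apart, each of these features passed under a single labelling only. In conditioned neuronal medium minus Y27632, Hdac1 stood at -0.82 SD units, Hdac2 feature 1 at 0.92, Hdac2 feature 2 at 0.46, Hdac6 at -0.79 and Hdac11 at 0.68.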

How the results depend on the processing

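Without the dye term, 6 deacetylase features passed in conditioned neuronal medium, 2 with Y27632 and 1 in the difference, and 2, 1 and 2 genes, where 27.1%, 10.5% and 17.7% of all features and 31.3%, 12% and 20.8% of all genes passed. With the treated RNA in Cy3 only, 7 features and 4 genes passed in the medium and 2 genes in the difference (52.1%, 56.2% and 41% of all), and with it in Cy5 only, 3 features and 2 genes passed in the difference (36.3% and 38.6% of all). With Y27632, 8 features passed in Cy3 only and 7 in Cy5 only (49.2% and 41.7% of all). Of the 7 features called there on all arrays, 3 kept call and sign in Cy3 only and 5 in Cy5 only. In Cy3 only, Hdac2 feature 1, Hdac4 and both Hdac7 features lost theirs. With the arrays of each labelling averaged, limma called 0 members in every comparison. Of all features 0.182% passed in the medium, and of all genes 1.76%, and 0% of either passed with Y27632 and in the difference. At an unadjusted p under 0.05 it called 0 features in each comparison and 1 gene in the medium, and no share over all was counted at that p. Turned signs are given first where the fit on all arrays, or the single-labelling fit in which the sign turned, passed the test. With Cy3 arrays only, the sign turned in the medium for Hdac1 (0.06 SD units), Hdac5 (0.88), Hdac11 (-0.21) and the Hdac8 gene mean (-0.41), and with Y27632 for Hdac2 feature 1 (0.025), Hdac4 (-0.033) and Hdac5 (1.39). With Cy5 arrays only, it turned for Sirt2 feature 3 (0.12 in the medium, 0.27 with Y27632) and for Hdac8 feature 2 (0.41 in the medium). Among features that passed in neither fit, the sign turned with Y27632 on Cy5 arrays only for Hdac1 (-0.32), Hdac2 feature 2 (0.41) and Hdac8 feature 2 (0.25). The cause was not tested.

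Leaving out 1 replicate gave 12 features in the medium, 7 to 8 with Y27632 and 4 to 6 in the difference, and 6 to 7, 4 to 6 and 4 genes, where 55.2% to 56.6%, 29.5% to 35.7% and 42.3% to 46% of all features and 59% to 60.5%, 32.4% to 38.6% and 46.3% to 50% of all genes passed. The gene count with Y27632 was 4 without replicate 2 or 6. Without Y27632 replicate 3, Hdac1 passed with Y27632 at 0.55 SD units. With the replicate number as a block, 5 features and 4 genes passed in the difference, as without it, where 44.1% of all features and 48% of all genes passed. Deviations of arrays of one number correlated at -0.05 to 0.08. Centring, scaling, quantile normalization and moderation kept all these counts within 1.5 times, but ended some calls. Hdac3 by feature (-0.94 SD units) and Hdac2 and Hdac11 by gene lost theirs with Y27632 under no moderation, Hdac7 by gene with Y27632 under quantile normalization, and Hdac6 by gene in the medium under centring, quantile normalization and no moderation. Over single features and gene means, 497 values kept their side of the threshold, 70 lost and 12 gained a call under the other settings, and 438, 14 and 4 did with a replicate left out. Without intensities no filter on dim features could be made.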
